A study of Mus musculus with 31 samples.

Results

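The MEF2 transcription factors *Mef2a*, *Mef2c* and *Mef2d* and the class IIa histone deacetylases *Hdac4*, *Hdac5*, *Hdac7* and *Hdac9* were followed through 4 experiments on fetal liver hematopoietic stem cells (FL HSCs) and mouse embryonic fibroblasts (MEFs). The members are these 7 genes of the 18193 genes named on the array. All 22 probe sets annotated to them were taken, plus 1 probe set that the study's own annotation places inside an intron of *Mef2c*, which gives 23 of the 45037 probe sets on the array. That intronic probe set (1445420_at) is kept apart throughout, because the study listed it after testing the same *Crebbp*+/- and WT samples.

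In each experiment a mutant was set against WT cells. *Crebbp*+/- FL HSCs (2 samples) were compared with WT FL HSCs (2 samples), and *Ep300*+/- FL HSCs (2 samples) with WT FL HSCs of their own (2 samples), all on the C57BL/6 background with WT littermates as controls. *Cdkn1a*-/- FL HSCs (4 samples) were compared with WT FL HSCs (3 samples) of the strain labelled B6/129Sv. Those mutant and WT mice were bought as separate stocks, so stock and genotype cannot be told apart. *Crebbp*+/- MEFs (4 samples) were compared with WT MEFs (4 samples) from C57BL/6 embryos, and each of 4 litters gave 1 culture of each genotype, each from a single embryo. Embryos were 14.5 days post coitus. FL HSCs were sorted as Sca-1+ Lin- AA4.1+ c-Kit++ cells, and each FL HSC sample pooled the cells of 15 embryos and used 12 ng of amplified RNA, whereas the methods describe the MEF RNA as unamplified. The mutations are carried by every cell of the animal.

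MEF2 proteins bind an AT-rich DNA site and switch on genes of muscle, neurons and lymphocytes. In blood, MEF2C is known for its part in lymphoid and megakaryocytic development. At the same DNA sites MEF2 proteins recruit either the acetyltransferases CREBBP and EP300, which activate transcription, or the class IIa HDACs, which bring in a repressor complex. Kinases of the CaMK, PKD and SIK families phosphorylate class IIa HDACs, which are then held in the cytoplasm by 14-3-3 proteins, and MEF2 target genes are released. In 3 of the 4 experiments the mutant thus lacked an allele of a direct cofactor of MEF2, while CDKN1A is an inhibitor of cyclin-dependent kinases.

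The letters of the MEF2 site itself occur close to the start of some member genes. The RefSeq promoter table (build GRCm38.p6) holds 13 windows for the 7 genes, each running from 250 bases before to 50 bases after a start site. The MEF2 consensus, searched on both strands, was present in 2 of these 13 windows, those of *Mef2a* and *Hdac5*, and in 3.19% of all 32851 windows of that length. The 2 stretches are printed because they are the places where the letters that MEF2 proteins bind stand in a member's own promoter window. Both are on the minus strand (*Mef2a* at chr7:67372821-67372890, *Hdac5* at chr11:102230153-102230222), are given 5′ to 3′ in the direction of transcription, and have the matching bases in capitals.
*Mef2a*: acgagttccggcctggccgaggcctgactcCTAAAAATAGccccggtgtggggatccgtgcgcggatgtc
*Hdac5*: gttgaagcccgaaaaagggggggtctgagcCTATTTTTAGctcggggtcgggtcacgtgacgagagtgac
The match is a description of the letters and not a bound site. The palindromic cAMP response element TGACGTCA, which recruits CREB and through it CREBBP, was searched in the same way and was in 0 of the 13 windows and in 1.79% of all windows.

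Expression was read on Mouse 430 2.0 arrays as log2 GCRMA levels. The 4 experiments were normalized apart, so a level can be read only against levels of the same probe set in the same experiment. The minimum level was log2(100), and 11199 to 12363 probe sets reached it on the *Crebbp* and *Ep300* FL HSC arrays, 18947 to 19522 on the *Cdkn1a* arrays and 14380 to 14684 on the MEF arrays. An array has no sequencing depth, and precision was limited by how many samples there were and by levels near the minimum. Markers separated the labelled cell types. All 7 measured stem cell and sort markers reached the minimum in every FL HSC sample and 1 of 7 did in MEFs, while all 6 fibroblast markers reached it in every MEF sample and 0 of 6 in any FL HSC sample. *Cdkn1a* WT sample 3 stood apart, with levels of 13.0 for the erythrocyte anion exchanger *Slc4a1*, 14.5 for albumin and 12.1 for the macrophage complement gene *C1qb*, against 2.68 and 2.69, 3.34 and 3.87, and 2.99 and 3.52 in the other WT samples of that experiment. Log2 changes of the *Cdkn1a* experiment are therefore also given without it. Hepatocyte markers were higher in the *Cdkn1a*-/- samples than in WT samples 1 and 2 as well, with albumin at 6.94 to 9.50 in *Cdkn1a*-/- samples. The mutated genes themselves did not separate the genotypes everywhere. The main *Crebbp* probe set read 11.95 and 11.66 in *Crebbp*+/- FL HSCs, against 12.07 and 11.41 in WT, and that of *Ep300* read 9.46 and 9.47 in *Ep300*+/- FL HSCs, against 9.53 and 9.60 in WT, so the labels were not checked by these probe sets there. *Cdkn1a* read 6.56, 6.34, 8.07 and 5.30 in *Cdkn1a*-/- FL HSCs, against 7.66, 8.17 and 8.86 in WT, so *Cdkn1a*-/- sample 3 lay within the WT range. Another *Cdkn1a* probe set read 2.18 to 2.25 in *Cdkn1a*-/- samples, sample 3 included, against 2.438 to 3.855 in WT samples. It was below the minimum in every sample and was not tested. Whether the probes of either *Cdkn1a* probe set lie in the deleted part is not given in the sources used here. In MEFs *Crebbp* was lower in every litter, as given with the MEF2 cofactors. In pooled or bulk RNA, fewer cells of a type and less RNA per cell cannot be told apart.

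Which members could be measured differed between the experiments. A probe set was tested where its highest sample reached the minimum, and this held for 10 of the 22 mRNA probe sets in the joint analysis of *Crebbp* and *Ep300* FL HSCs, 18 in *Cdkn1a* FL HSCs and 17 in MEFs. The intronic probe set passed in both FL HSC analyses and not in MEFs. *Mef2c*, *Mef2a*, *Mef2d*, *Hdac4* and *Hdac7* had at least 1 tested probe set in every experiment. *Hdac5*, a repressor of MEF2 known from the heart, was below the minimum in the *Crebbp* and *Ep300* FL HSCs (4.03 to 5.15) and above it in every *Cdkn1a* FL HSC sample (8.16 to 8.84) and every MEF sample (8.06 to 8.68). *Hdac9*, whose product also acts in the heart and in regulatory T cells, reached the minimum only on the *Cdkn1a* arrays, where its main probe set (1434572_at) read 7.90 to 9.53. The same probe set read 3.58 to 4.42 in the *Crebbp* and *Ep300* FL HSCs and 3.29 to 3.47 in MEFs. Of the remaining probe sets, *Hdac4* 1447566_at and *Hdac9* 1421306_a_at were not tested in any experiment, *Mef2a* 1425426_a_at and *Mef2d* 1421388_at were tested in MEFs only, and *Mef2a* 1452347_at in *Cdkn1a* FL HSCs and MEFs. All levels here come from separate normalizations and are set side by side only as above or below the minimum.

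The mRNA of *Mef2c* was not called as changed in *Crebbp*+/- FL HSCs, and its point estimates lay above 0. Its main probe set (1424852_at), meaning here the one with the highest mean over all arrays, read 11.49 and 11.40 in *Crebbp*+/- samples, against 11.30 and 11.04 in WT samples, a log2 change of 0.28 with a standard error (SE) of 0.11 and an adjusted p of 0.215 from limma. The groups did not overlap, as in 5 of the 10 tested member mRNA probe sets and 28.2% of all probe sets tested, and the difference did not pass the test. The other tested *Mef2c* mRNA probe sets changed by 0.25 (1451507_at), 0.13 (1451506_at) and 0.03 (1421027_a_at). All 4 were higher in both *Crebbp*+/- samples than in the WT samples of the same number, here taken as their pairs. The remaining mRNA probe set (1421028_a_at) stayed below the minimum. A change was called where the adjusted p (Benjamini-Hochberg over all tested probe sets) was under 0.05 and the fold over 1.5, which 51 of 13332 probe sets (0.383%) met in this comparison, and 0 of the 10 member mRNA probe sets did. At an unadjusted p under 0.05 there were 3 of the 10, against 24% of all probe sets tested.

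The intronic probe set of *Mef2c* ran the other way. It read 5.10 and 5.43 in *Crebbp*+/- samples, against 6.26 and 6.70 in WT samples. All 4 mutant arrays (5.003 to 5.48) lay under all 4 WT arrays (5.98 to 6.72). These arrays are 2 technical replicates of each sample, so they add no replicate to the 2 samples of a genotype. By limma the intronic probe set fell by 1.22 on the log2 scale with an adjusted p of 0.0486 (SE 0.11), the only call among the members. Because the study chose this probe set on these samples, the value is a description and not independent evidence. It passed the filter through 1 sample, WT sample 2, and the mean of the *Crebbp*+/- samples was under the minimum. In pair 1 the intronic probe set differed by -1.16 where the median of the 4 mRNA probe sets differed by 0.087, and in pair 2 by -1.27 against 0.28. With 2 pairs an exact test of that gap cannot give a p below 0.5. The call was lost in 7 alternative analyses, including the fit without the pair block (adjusted p = 0.43) and the fit without pair 1 (adjusted p = 0.0846), and without pair 2 the probe set no longer reached the minimum.

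**Figure D1:**
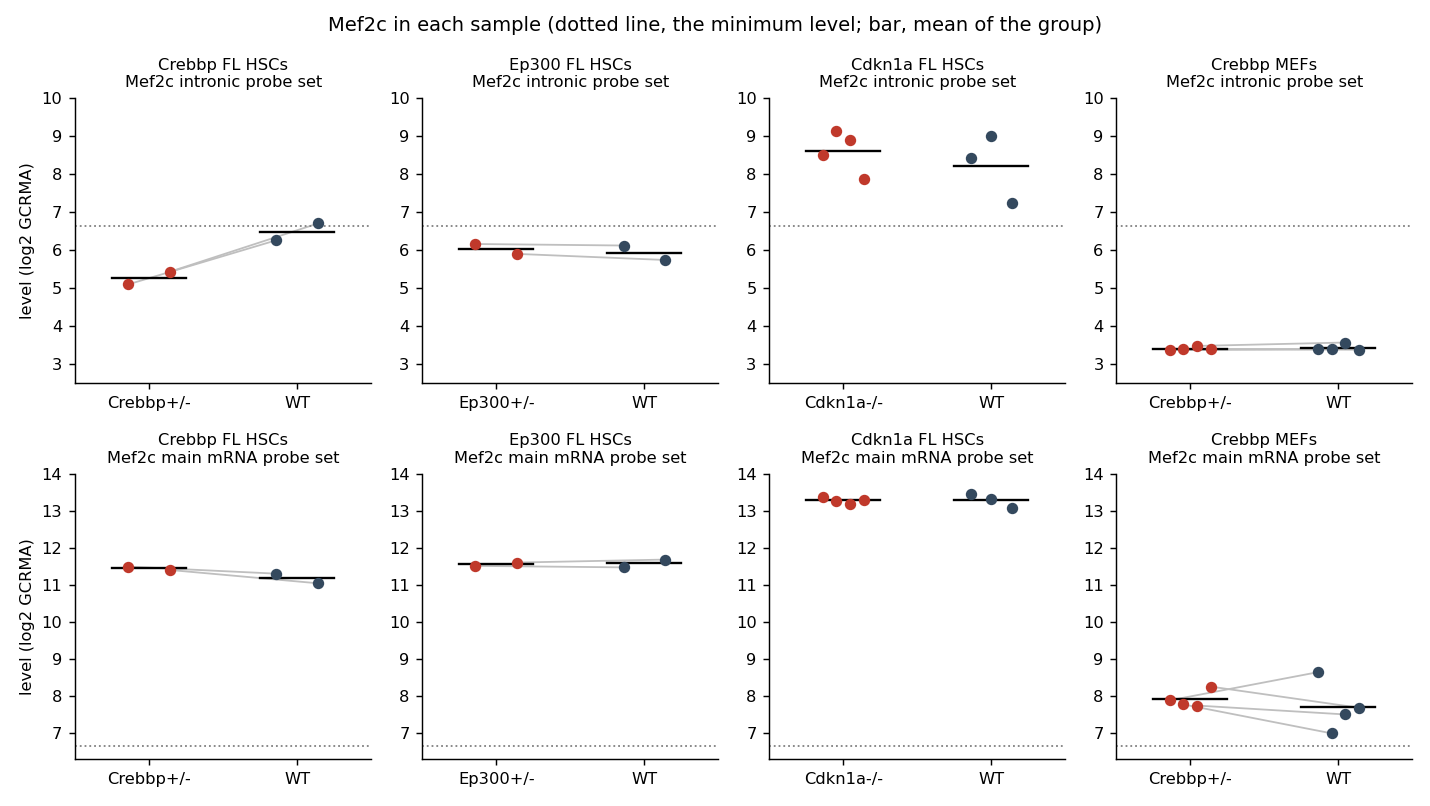
Log2 GCRMA level of the intronic probe set of Mef2c (upper row) and of its main mRNA probe set (lower row) in each sample, with mutant samples in red on the left and WT samples in blue on the right of each panel; lines join pairs or litters, bars are group means and the dotted line is the minimum level. The intronic probe set reads 5.10 and 5.43 in Crebbp+/- FL HSCs under 6.26 and 6.70 in WT, while the mRNA probe set reads 11.49 and 11.40 above 11.30 and 11.04.

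Among the class IIa HDACs of *Crebbp*+/- FL HSCs, *Hdac4* was higher and *Hdac7* lower in both pairs, and neither passed the test. *Hdac4*, known for holding back chondrocyte maturation, read 7.86 and 7.50 in *Crebbp*+/- samples, against 7.45 and 6.74 in WT samples (1454693_at). The groups did not overlap, and the log2 change was 0.58 (SE 0.13, limma adjusted p = 0.0921). *Hdac7*, the class IIa enzyme of lymphocyte precursors and endothelium, read 6.62 and 6.72 in *Crebbp*+/- samples, against 7.27 and 6.97 in WT samples (1420813_at), a log2 change of -0.45 (SE 0.16, limma adjusted p = 0.176). Its *Crebbp*+/- levels lay at the minimum, so its size is not exact. The second *Hdac4* probe set (1436758_at) and the second *Hdac7* probe set (1420812_at) stayed below the minimum and cannot be set beside these values.

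*Mef2d*, which is widely expressed, was lower in both *Crebbp*+/- samples than in their pairs. Its main probe set (1434487_at) read 7.33 and 7.90 in *Crebbp*+/- samples, against 7.78 and 8.19 in WT samples, a log2 change of -0.37 (SE 0.11, limma adjusted p = 0.143). The groups overlapped, since pair 2 was brighter than pair 1 in both genotypes, and without the pair block the adjusted p was 0.725. Its other tested probe set (1437300_at) passed the filter through the *Ep300* samples and was below the minimum in all 4 samples here (5.57 to 5.91 in *Crebbp*+/-, against 5.76 to 5.94 in WT). *Mef2a*, the widely expressed member known best from muscle, differed by 0.20 (1427185_at) and 0.17 (1427186_a_at), and in each of these probe sets pair 1 was lower and pair 2 higher in the mutant. The median log2 change of the 10 mRNA probe sets was 0.15, beside 0.048 over all probe sets tested.

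Markers of other cell types were compared between the genotypes in these 4 samples. The summed level of the 4 megakaryocyte markers was 6.01 and 6.40 in *Crebbp*+/- samples, against 7.11 and 7.13 in WT samples, and 0 of the 4 reached the minimum in *Crebbp*+/- samples while 1 did in WT samples. The 6 B lymphoid markers summed to 9.02 and 9.21 in *Crebbp*+/- samples, against 8.49 and 9.02 in WT samples, so the genotypes met at 9.02. The 8 macrophage markers summed to 9.39 to 10.94 in *Crebbp*+/- samples, against 9.86 to 10.80 in WT samples, and overlapped. The hepatocyte markers summed to 8.06 and 8.65 in *Crebbp*+/- samples, against 5.04 and 9.64 in WT samples, so that list varied most between the WT samples. Erythroid, fibroblast and skeletal muscle markers stayed below the minimum in all 4. In the *Ep300* experiment the megakaryocyte sum was lower too, at 6.52 and 6.85 in *Ep300*+/- samples, against 6.95 and 7.05 in WT samples. The B lymphoid sum was also lower there, at 8.68 and 8.72 against 8.88 and 8.97. Among single probe sets, groups did not overlap in 28.2% of those tested in the *Crebbp* and 32.7% in the *Ep300* experiment. The part of these markers in the member changes was not tested.

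**Figure D2:**
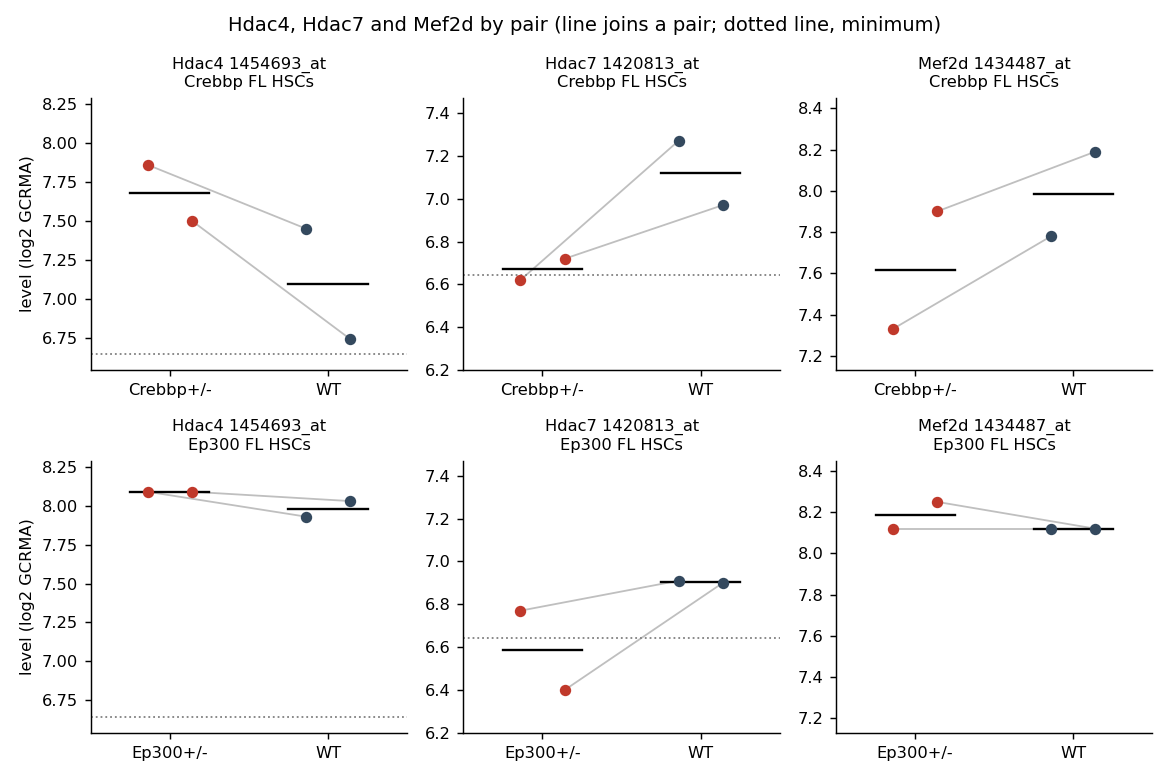
Log2 GCRMA levels of Hdac4, Hdac7 and Mef2d by pair in the Crebbp (upper row) and Ep300 (lower row) FL HSC experiments, mutant in red on the left and WT in blue on the right; bars are group means and the dotted line is the minimum level. Hdac4 reads 7.86 and 7.50 in Crebbp+/- samples over 7.45 and 6.74 in WT, and Hdac7 lies lower in both mutants of each experiment.

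In *Ep300*+/- FL HSCs no member was called. Limma called 0 of the 11 tested member probe sets and 0 of 13332 probe sets in all (0%), and at an unadjusted p under 0.05 there were 0 members, against 4.28% of all probe sets. The main *Mef2c* probe set (1424852_at) read 11.51 and 11.60 in *Ep300*+/- samples, against 11.47 and 11.68 in WT samples, a log2 change of -0.02 (SE 0.11). Its intronic probe set read 6.16 and 5.90 in *Ep300*+/- samples, against 6.12 and 5.74 in WT samples. Both sets of levels overlapped between genotypes, and the intronic levels were all below the minimum, so a change there could not be measured. *Hdac7* was again the lowest of the members, with 6.77 and 6.40 in *Ep300*+/- samples, against 6.91 and 6.90 in WT samples (1420813_at), a log2 change of -0.32 (SE 0.16, limma adjusted p = 0.9999). *Hdac4* read 8.09 and 8.09 in *Ep300*+/- samples, against 7.93 and 8.03 in WT samples (1454693_at), a log2 change of 0.11. The groups of *Hdac4* and of *Hdac7* did not overlap, which makes 2 of the 10 mRNA probe sets beside 32.7% of all probe sets tested, and neither passed the test. The changes of the 10 mRNA probe sets lay between -0.32 and 0.11, with a median of -0.064 beside -0.016 over all probe sets tested.

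The *Crebbp* and *Ep300* effects were also tested against each other in the joint fit. Limma called 0 of 13332 probe sets (0%) as different, and 15.2% had an unadjusted p under 0.05. The intronic probe set of *Mef2c* differed between the effects by -1.32 (SE 0.15, adjusted p = 0.149), again on samples that chose it and with its *Ep300* experiment levels all below the minimum. Among the 10 mRNA probe sets, 1 had an unadjusted p under 0.05, the *Mef2d* probe set 1434487_at (difference -0.43, SE 0.15, adjusted p = 0.307). *Hdac4* differed by 0.47 (SE 0.18, adjusted p = 0.334) and *Hdac7* by -0.13 (SE 0.22, adjusted p = 0.825). With 2 pairs an experiment these intervals are wide, and no difference between the mutants was shown for any mRNA of the family.

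Loss of *Cdkn1a* left every measured member uncalled. Limma called 85 of 20962 probe sets (0.405%), and 0 of the 19 tested member probe sets were among them. Without WT sample 3 there were 83 calls and again 0 members. At an unadjusted p under 0.05 there were 0 members, against 7.29% of all probe sets, and over the 18 mRNA probe sets the median change was -0.013 on the log2 scale, beside 0.055 over all. *Mef2c* read 13.36, 13.26, 13.19 and 13.30 in *Cdkn1a*-/- samples, against 13.44, 13.31 and 13.08 in WT samples (1424852_at). The *Cdkn1a*-/- range lay within the WT range, and the log2 change was 0.00 (SE 0.11), or -0.10 without WT sample 3. The *Mef2c* probe set 1421028_a_at read 10.03, 9.10, 9.13 and 9.28 in *Cdkn1a*-/- samples, against 10.09, 9.66 and 10.23 in WT samples. Its log2 change of -0.61 (SE 0.27, limma adjusted p = 0.692), or -0.49 without WT sample 3, was not shared by the other 4 *Mef2c* mRNA probe sets, which ran from -0.07 to 0.17. The 4 hepatocyte markers summed to 9.59 to 11.69 in *Cdkn1a*-/- samples, against 8.62 to 8.74 in WT samples 1 and 2 and 16.35 in WT sample 3, and the part of these markers in the member levels was not tested.

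The intronic *Mef2c* probe set spread more widely than the mRNA in the *Cdkn1a* experiment. It read 8.50, 9.12, 8.90 and 7.86 in *Cdkn1a*-/- samples, against 8.42, 9.01 and 7.23 in WT samples, a log2 change of 0.37 (SE 0.48, limma adjusted p = 0.807). The lowest value belonged to WT sample 3, and without that sample the difference was -0.12. Relative to the main mRNA probe set, the difference between the genotypes was 0.37 (two-sided exact permutation test, p = 0.457, where the smallest p possible is 0.0571). Without WT sample 3 it was -0.023 (exact permutation p = 0.933).

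The other MEF2 and HDAC members of *Cdkn1a*-/- FL HSCs were not called either. *Mef2a* read 11.64, 11.55, 11.30 and 11.45 in *Cdkn1a*-/- samples, against 11.76, 11.52 and 11.89 in WT samples (1427185_at, log2 change -0.24, limma adjusted p = 0.717, and -0.16 without WT sample 3). *Hdac7* (1420813_at) was the 1 of 18 mRNA probe sets that did not overlap between genotypes, beside 7.88% of all probe sets tested, with 10.06, 10.08, 10.04 and 9.77 in *Cdkn1a*-/- samples, against 10.21, 10.15 and 10.16 in WT samples. The log2 change was -0.19 (SE 0.10, limma adjusted p = 0.717) and -0.19 without WT sample 3 as well, and its other probe set (1420812_at) lay 0.22 higher, or 0.44 without that sample. *Hdac9* read 8.57, 9.11, 8.51 and 7.90 in *Cdkn1a*-/- samples, against 8.06, 8.88 and 9.53 in WT samples. Its log2 change of -0.30 (SE 0.41) became 0.056 without WT sample 3, which held its highest WT value. The *Hdac4*, *Hdac5* and *Mef2d* probe sets differed by -0.03 to 0.21, or by -0.19 to 0.03 without WT sample 3. The *Mef2a* probe set 1442623_at was tested on the strength of *Cdkn1a*-/- sample 3, which read 7.24 while the other 6 samples read 5.35 to 5.96.

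In *Crebbp*+/- MEFs the tested probe sets of *Hdac4*, *Hdac5* and *Hdac7* had lower means than in WT MEFs, and none passed the test. Limma called 0 of 15502 probe sets (0%), and the 4 member probe sets with an unadjusted p under 0.05, among 17 tested, were all HDACs and all lower, against 6.64% of all probe sets in either direction. The *Hdac4* probe set 1436758_at read 7.38, 7.55, 7.44 and 7.48 in *Crebbp*+/- litters 1 to 4, against 7.75, 7.70, 7.99 and 7.75 in the WT cultures of the same litters. The genotypes did not overlap, which held for 1 of the 17 member probe sets and 3.57% of all probe sets tested, and the log2 change was -0.34 (SE 0.09, adjusted p = 0.63). *Hdac5* read 8.13, 8.06, 8.46 and 8.15 in *Crebbp*+/- MEFs, against 8.54, 8.47, 8.68 and 8.32 in WT MEFs (1415743_at). It was lower in every litter, by a log2 value of -0.30 on average (SE 0.08, adjusted p = 0.626). *Hdac7* read 8.83, 9.06, 9.07 and 8.79 in *Crebbp*+/- MEFs, against 9.03, 9.27, 9.25 and 9.05 in WT MEFs (1420813_at), a log2 change of -0.21 (SE 0.06, adjusted p = 0.658).

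In all, 4 of the 5 tested HDAC probe sets were lower in the mutant of every litter, as were 6.25% of all 15502 probe sets tested, and of the 12 MEF2 probe sets 1 was. The *Hdac4* probe set 1454693_at read 5.94, 6.22, 6.72 and 6.45 in *Crebbp*+/- MEFs, against 6.51, 6.51, 6.80 and 6.62 in WT MEFs (log2 change -0.28, SE 0.10, adjusted p = 0.714). Only the 2 cultures of litter 3 reached the minimum there. The exception, the *Hdac7* probe set 1420812_at, read 8.43, 8.46, 8.67 and 8.62 in *Crebbp*+/- MEFs, against 8.20, 9.09, 8.98 and 8.97 in WT MEFs, so that WT litter 1 was its lowest culture. Of the B lymphoid markers, 1 of 6 reached the minimum in MEFs, the transcription factor *Ebf1*. It read 8.03 to 8.43 in *Crebbp*+/- MEFs, against 8.78 to 9.25 in WT MEFs. The list summed to 8.18 to 8.54 in *Crebbp*+/- MEFs, against 8.88 to 9.31 in WT MEFs, so the sum mainly followed *Ebf1* and is not a measure of B cells. The part of *Ebf1* in the HDAC levels was not tested.

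**Figure D3:**
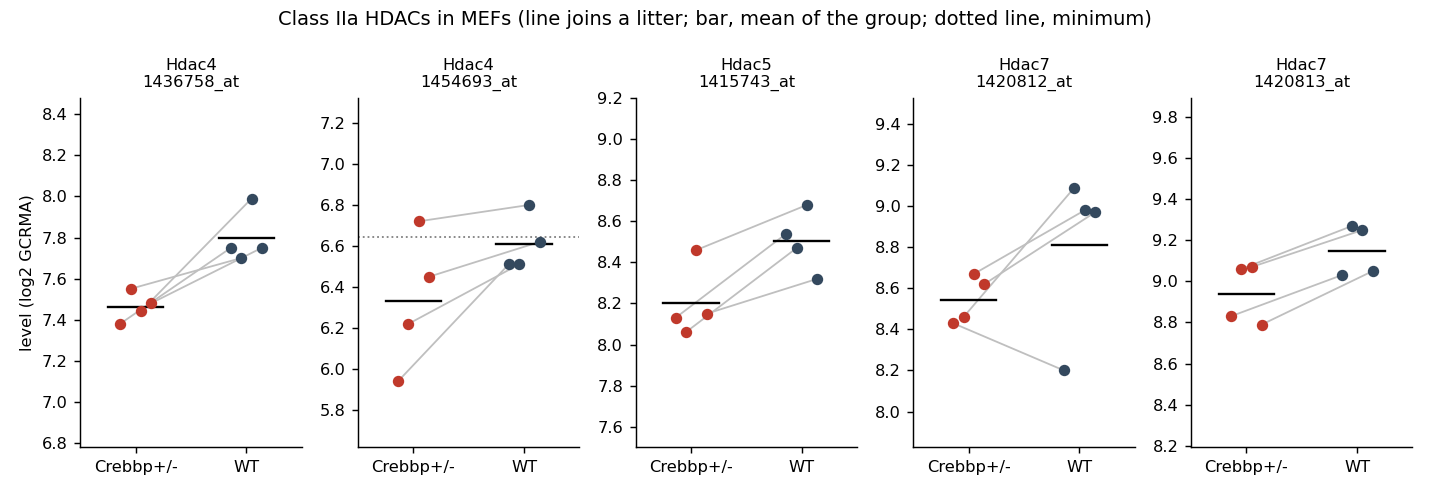
Log2 GCRMA levels of the 5 tested class IIa HDAC probe sets in MEFs, Crebbp+/- in red on the left and WT in blue on the right; lines join the cultures of a litter, bars are group means and the dotted line is the minimum level. The mutant lies below WT in every litter except litter 1 of the Hdac7 probe set 1420812_at, and the 5 probe sets have log2 changes of -0.34 to -0.21.

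Levels of *Mef2c* and *Mef2a* in MEFs varied between cultures of the same genotype. *Mef2c* read 7.88, 7.77, 7.74 and 8.25 in *Crebbp*+/- litters 1 to 4, against 8.64, 6.99, 7.50 and 7.68 in WT litters 1 to 4 (1424852_at). The WT cultures alone spanned the whole range of the mutants, and the log2 change was 0.21 (SE 0.26, limma adjusted p = 0.866). Without litter 1, in which WT was the higher culture, the change was 0.53 (adjusted p = 0.33). *Mef2a* read 9.30, 8.90, 8.96 and 9.44 in *Crebbp*+/- MEFs, against 9.87, 8.85, 8.94 and 9.19 in WT MEFs (1427185_at), a log2 change of -0.06 (SE 0.14) that became 0.11 without litter 1. WT litter 1 was the highest of the 8 cultures in 4 of 4 tested *Mef2c* probe sets and 4 of 5 *Mef2a* probe sets, and in 21.9% of all probe sets tested. The *Mef2c* litter means spanned 0.88 to 1.58 and those of *Mef2a* 0.57 to 0.91, while *Mef2d* spanned 0.20 to 0.33 and the HDAC probe sets 0.15 to 0.53.

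Of the 6 fibroblast markers, the surface gene *Thy1*, singled out after its values were seen, varied between cultures, while the list as a whole summed to 16.94 to 17.13 in *Crebbp*+/- MEFs and 17.06 to 17.17 in WT MEFs. The collagen *Col1a1* read 15.62 to 15.75 over the 8 cultures. *Thy1* read 11.6, 12.5, 12.4 and 10.5 in *Crebbp*+/- litters 1 to 4, against 10.7, 13.1, 13.1 and 12.8 in WT litters 1 to 4, so the lowest levels belonged to *Crebbp*+/- litter 4 and WT litter 1. The muscle regulators *Myod1* (1.98 to 2.04) and *Myog* (2.67 to 2.71), partners of MEF2 in skeletal muscle, lay far below the minimum in all 8 cultures. Of the 7 skeletal muscle markers only *Acta1* reached it, with 8.81 to 10.3 in *Crebbp*+/- MEFs and 7.69 to 9.60 in WT MEFs. Of the 8 macrophage markers, 4 reached it in at least 1 culture of each genotype. They summed to 8.74 to 9.12 in *Crebbp*+/- MEFs and 8.22 to 9.87 in WT MEFs. Among the WT cultures *C1qb* ran from 4.71 in litter 1 to 8.09 in litter 3. The part of these markers in the *Mef2a* and *Mef2c* levels was not tested. The intronic *Mef2c* probe set read 3.37 to 3.48 in *Crebbp*+/- MEFs and 3.38 to 3.57 in WT MEFs, below the minimum in every culture, whereas the mRNA was above it.

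**Figure D4:**
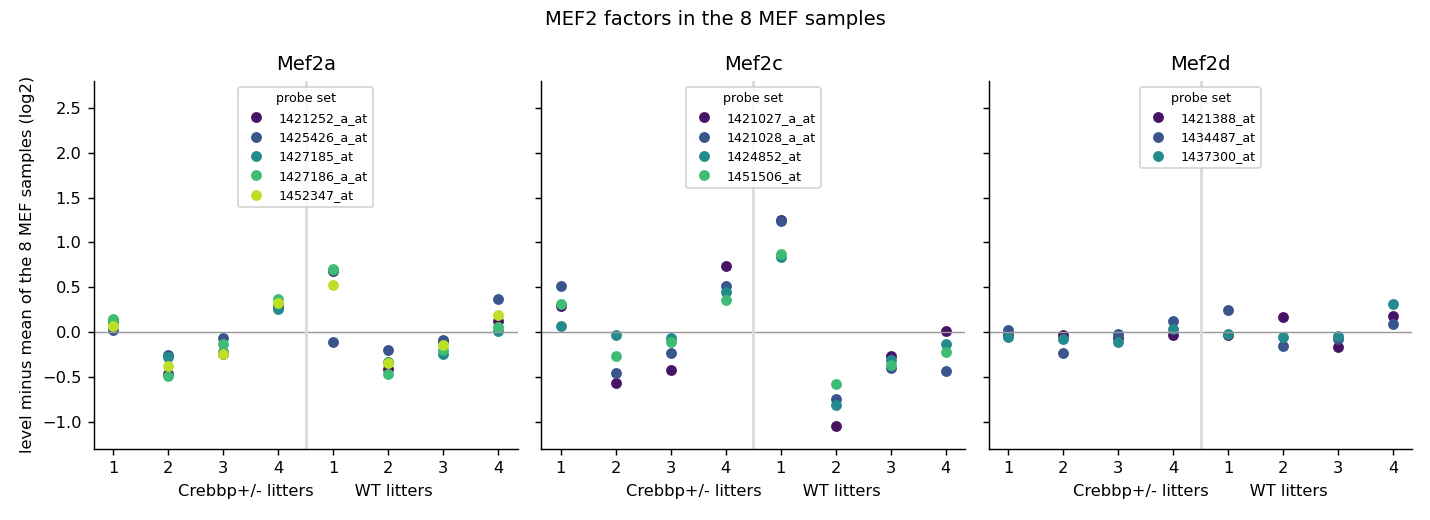
Level of each tested Mef2a, Mef2c and Mef2d probe set in the 8 MEF cultures, as the log2 difference from the mean of the 8, with Crebbp+/- litters on the left and WT litters on the right of each panel and a colour for each probe set. WT litter 1 is highest in 4 of 5 Mef2a and 4 of 4 Mef2c probe sets, and Mef2d varies least.

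Side by side, the members as a family had no direction in common across the 4 comparisons. The *Hdac7* probe set 1420813_at was lower in all 4, each time uncalled. Its log2 changes were -0.45 in *Crebbp*+/- FL HSCs, -0.32 in *Ep300*+/- FL HSCs, -0.19 in *Cdkn1a*-/- FL HSCs and -0.21 in *Crebbp*+/- MEFs. The other *Hdac7* probe set (1420812_at) was below the minimum in *Crebbp* and *Ep300* FL HSCs. It differed by 0.22 in *Cdkn1a*-/- FL HSCs, or 0.44 without WT sample 3, and by -0.27 in *Crebbp*+/- MEFs. *Hdac4* (1454693_at) differed by 0.58, 0.11 and 0.04 in the same 3 FL HSC mutants and by -0.28 in *Crebbp*+/- MEFs. The difference between FL HSCs and MEFs was not tested. *Mef2c* (1424852_at) differed by 0.28, -0.02, 0.00 and 0.21.

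**Figure D5:**
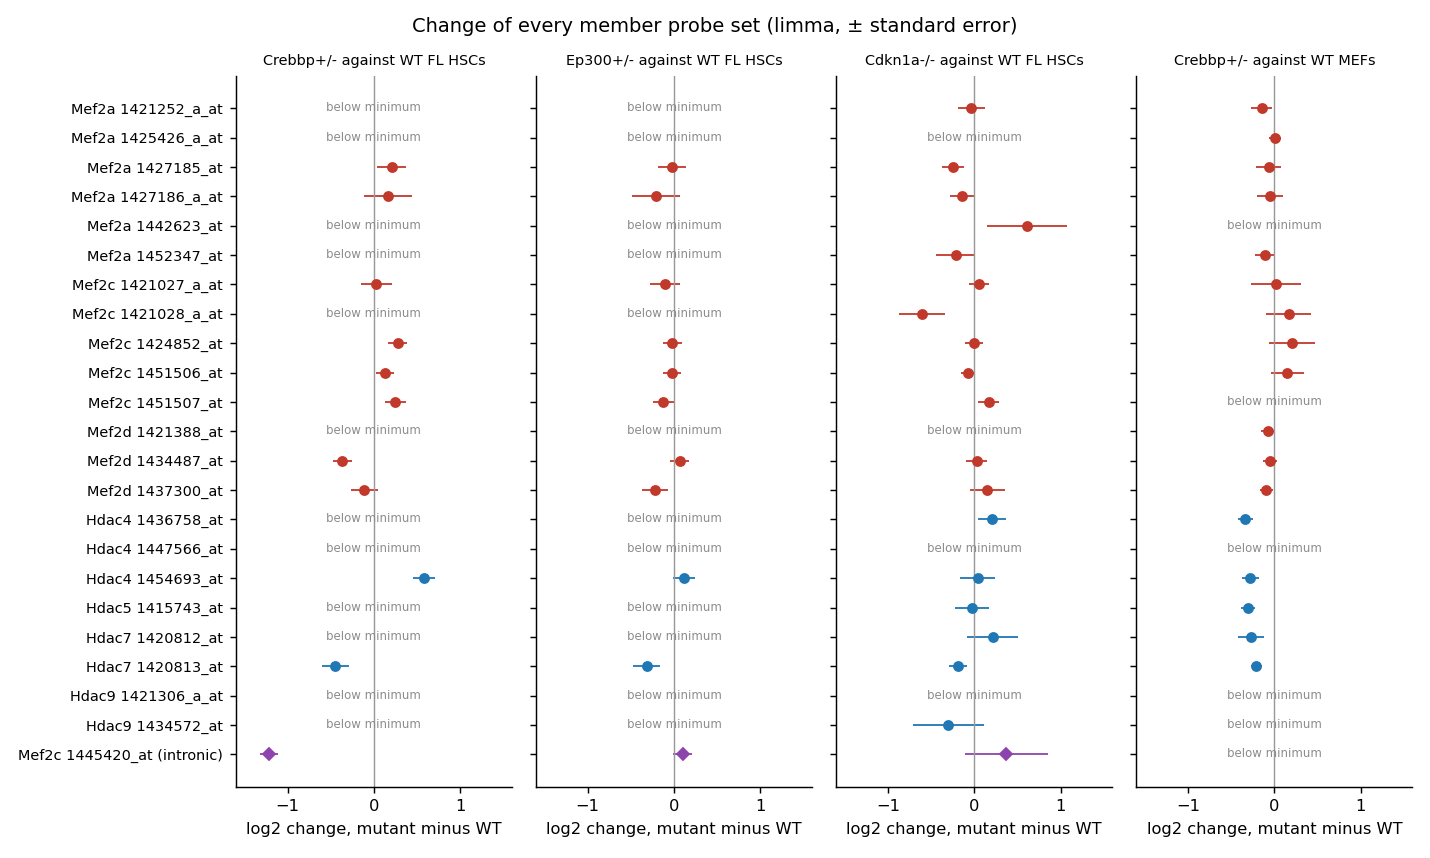
Log2 change (mutant minus WT, limma) with its standard error for all 23 member probe sets in the 4 comparisons; MEF2 factors are red, class IIa HDACs blue and the intronic Mef2c probe set a purple diamond, and probe sets below the minimum were not tested. The intronic probe set in Crebbp+/- FL HSCs, at -1.22, is the only call, and the 5 tested HDAC probe sets of Crebbp+/- MEFs lie to the left of 0, between -0.34 and -0.21.

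The pattern of *Mef2c* over samples was most like that of *Pik3r1*, which encodes regulatory subunits of phosphoinositide 3-kinase. Over the 23 samples, each value taken relative to the mean of its experiment, *Pik3r1* (1438682_at) had a Pearson r of 0.91 with the main *Mef2c* probe set among 10242 probe sets tested in all 4 experiments. The next were the *Mef2c* probe sets 1451506_at and 1421027_a_at, both with r = 0.90. Without *Cdkn1a* WT sample 3 the closest were 1451506_at (0.92), *Pik3r1* (0.91) and the long non-coding RNA *Tug1* (0.91). Within the 8 MEF samples the r of *Pik3r1* was 0.95, and within the 15 FL HSC samples it was 0.82. The 2 *Mef2c* probe sets followed the main one less closely in FL HSCs than in MEFs. For 1451506_at r was 0.94 within MEFs and 0.48 within FL HSCs, or 0.63 without *Cdkn1a* WT sample 3. For 1421027_a_at r was 0.93 within MEFs and 0.60 within FL HSCs. Samples of 1 experiment share litters or a normalization, so these are descriptions.

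Genes that act on the MEF2 and HDAC members gave no call in any of the 4 comparisons. They were described by 6 lists of 7 to 21 genes, each gene represented by its main probe set outside the intronic list. Of the 13 tested kinases that phosphorylate class IIa HDACs, 3 were higher and 3 lower in *Crebbp*+/- FL HSCs at an unadjusted p under 0.05, which 24% of all probe sets met there. *Sik1*, a salt-inducible kinase that CREB induces, read 4.08 and 5.43 in *Crebbp*+/- samples, against 5.74 and 6.65 in WT samples (log2 change -1.44, SE 0.18, limma adjusted p = 0.0513), with 1 of the 4 samples at the minimum. *Sik1* was 0.34 higher in *Ep300*+/- FL HSCs (adjusted p = 0.9999), and the difference between the effects was -1.79 (SE 0.26, adjusted p = 0.152). The calcium-dependent kinase *Camk1d* read 8.02 and 7.57 in *Crebbp*+/- samples, against 7.45 and 6.81 in WT samples (0.67, adjusted p = 0.0901). *Camk2a* read 9.05 and 9.08 in *Crebbp*+/- samples, against 9.56 and 9.64 in WT samples (-0.53, adjusted p = 0.116).

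Kinases were not called in the other mutants either. *Prkd1*, the protein kinase D that exports class IIa HDACs from the nucleus, read 8.92, 9.08, 9.13 and 9.20 in *Crebbp*+/- MEFs, against 8.58, 8.67, 8.58 and 8.71 in WT MEFs. The genotypes did not overlap, as in 3.57% of all probe sets tested, and the log2 change was 0.45 (SE 0.07, limma adjusted p = 0.478). It was the 1 of 14 tested kinases with an unadjusted p under 0.05 there, beside 6.64% of all probe sets. In *Cdkn1a*-/- FL HSCs 2 of 16 tested kinases had an unadjusted p under 0.05, beside 7.29% of all probe sets. Of these, *Camk4* was 1.11 higher (limma adjusted p = 0.626), or 0.57 without WT sample 3, and its WT values were 7.24, 7.12 and 5.57, the lowest in WT sample 3. Of the 6 tested 14-3-3 proteins, which hold phosphorylated class IIa HDACs in the cytoplasm, 1 passed an unadjusted p of 0.05 in *Crebbp*+/- FL HSCs (*Ywhaz*, 0.31, adjusted p = 0.203), beside the same 24%, and 0 did in the other comparisons.

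Upstream of MEF2 itself, the 7 tested MAP kinase and calcineurin genes were all higher in *Crebbp*+/- FL HSCs, with a median log2 change of 0.092 beside 0.048 over all probe sets, and 1 had an unadjusted p under 0.05, again beside 24% of all. This was *Map2k6*, a kinase that activates p38, which read 9.36 and 9.22 in *Crebbp*+/- samples, against 8.68 and 8.55 in WT samples (0.67, SE 0.10, limma adjusted p = 0.0588). Among 9 tested cofactors of MEF2, *Vgll4* had an unadjusted p under 0.05, beside the same 24% of all. All 4 samples were below the minimum for it (6.42 and 4.87 in *Crebbp*+/-, against 5.44 and 4.51 in WT). In MEFs, *Crebbp* itself read 9.48, 9.50, 9.42 and 9.38 in *Crebbp*+/- cultures, against 10.3, 10.2, 10.3 and 10.2 in WT cultures (-0.79, SE 0.07, adjusted p = 0.417), so the arrays followed the labels there.

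None of the known MEF2 target genes was called in any of the 4 comparisons. Of 16, 7 were tested in *Crebbp* and *Ep300* FL HSCs, 9 in *Cdkn1a* FL HSCs and 6 in MEFs. In *Crebbp*+/- FL HSCs 6 of the 7 were lower, with a median log2 change of -0.13 beside 0.048 over all, and 1 had an unadjusted p under 0.05 (24% of all), the Krüppel-like factor *Klf4* (-0.39, limma adjusted p = 0.201). The exception was the lymphoid cytokine receptor *Il7r*, with 7.29 and 8.33 in *Crebbp*+/- samples, against 6.55 and 7.67 in WT samples (0.70, adjusted p = 0.212). The AP-1 subunit *Jun* read 11.5, 12.0, 12.6 and 11.3 in *Cdkn1a*-/- FL HSCs, against 10.8, 9.70 and 10.5 in WT samples (1.53, SE 0.38, adjusted p = 0.321, and 1.61 without WT sample 3). Its groups did not overlap, as in 7.88% of all probe sets tested. It was the 1 of 9 targets with an unadjusted p under 0.05 there, beside 7.29% of all. *Klf4* also had a lower mean in *Crebbp*+/- MEFs (-0.57, limma adjusted p = 0.703), and was lower in 3 litters and higher in 1. It read 9.26, 8.30, 8.24 and 8.95 in *Crebbp*+/- litters 1 to 4, against 9.18, 9.115, 9.29 and 9.44 in WT. It was the 1 of 6 targets with an unadjusted p under 0.05 there, beside 6.64% of all. Of the other zinc-dependent HDACs, 0 of 5, 0 of 5, 0 of 6 and 0 of 4 tested genes had an unadjusted p under 0.05 in *Crebbp*+/-, *Ep300*+/- and *Cdkn1a*-/- FL HSCs and in *Crebbp*+/- MEFs.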

How the data were processed

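The deposited values are log2 levels that the authors obtained with GCRMA (sequence-based background correction, quantile normalization, 1 summary per probe set), run apart on each of 4 groups of arrays. Of 45101 probe sets, 64 controls were removed. Arrays read as technical replicates of a *Crebbp* or *Ep300* FL HSC sample (r = 0.989 to 0.994) were averaged, and probe sets with at least 1 sample at log2(100) entered limma 3.58.1 (R 4.3.3). *Crebbp* and *Ep300* FL HSCs were fitted jointly (8 samples) with a block for each pair of the same number. The methods name a paired test but not the pairs, so pairing by number is an assumption. *Cdkn1a* samples were unpaired, and MEFs had a block for litter. Same-numbered samples deviated together (r = 0.7 and 0.4 in the FL HSC experiments, 0.19 to 0.46 in MEF litters). The code was tested on simulated data. Fits recomputed without the block, the filter, single samples or a technical replicate, with an interquartile range filter of 0.5, median centring or the t-test of the methods stand in the closing section. Pooled samples or cultures are the replicates. In the fits with a block, p-values measure the spread of the mutant minus WT differences between pairs or litters. The *Crebbp* and *Ep300* experiments share 1 estimate of it. In the *Cdkn1a* fit, p-values measure the spread between pools of a genotype. Gene names came from the platform annotation, in which 34945 probe sets have 1 symbol, 932 several and 9160 none listed. Every member probe set is named. Of other lists, the up to 3 smallest p were eligible. The members and lists were chosen with earlier results of these data known.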

Additional observations from a re-analysis of the deposited data

Results flagged for a closer look

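Among 53 probe set and group combinations with 4 samples, 5 held a sample far from the other 3 of its group, where chance gives about 1 in 20. In *Cdkn1a*-/- FL HSCs, *Mef2a* (1421252_a_at) read 8.56 in sample 1, against 8.37 to 8.38 in the other mutant samples. *Hdac7* (1420813_at) read 9.77 in *Cdkn1a*-/- sample 4, against 10.04 to 10.08 in the others, and this sample widened the gap to WT described above. In MEFs, WT litter 1 stood apart in a pair of probe sets, with *Mef2c* (1421028_a_at) at 7.10, against 5.12 to 5.46 in the other WT litters, and *Hdac7* (1420812_at) at 8.20, against 8.97 to 9.09. WT litter 4 was high for *Mef2d* (1437300_at), at 9.01 against 8.65 to 8.68.

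Of 18 member probe set comparisons between the *Crebbp* or *Ep300* FL HSC experiment and MEFs, 2 had opposite directions in every pair and every litter. Both were of *Hdac4* (1454693_at) and used the same MEF values, of which only those of litter 3 reached the minimum. The share over all probe sets was not worked out. Its log2 change was 0.58 in *Crebbp*+/- FL HSCs and -0.28 in *Crebbp*+/- MEFs, a difference of 0.86, and 0.11 in *Ep300*+/- FL HSCs, a difference of 0.39 from the MEF value. These differences were not tested.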

How the results depend on the processing

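The single call among the members, the intronic *Mef2c* probe set in *Crebbp*+/- FL HSCs, rests on the processing. The count of called members there was 0 without the replicate block, 0 with only the 4 samples of the experiment, 0 with only technical replicate 1, 0 with only technical replicate 2, 0 with no filter on the level, 0 by the t-test of the methods and 0 to 0 without a pair, and 1 with the interquartile range filter or median centring. The log2 change stayed between -1.04 and -1.39. Over all probe sets, 51 calls in that comparison became 0 without the replicate block, 324 with the interquartile range filter and 208 with median centring, and the 85 calls in *Cdkn1a*-/- FL HSCs became 42 with no filter, 6 with a replicate block and 38 to 87 without 1 sample (38 without *Cdkn1a*-/- sample 2 or 4, 43 without sample 1, 51 without sample 3 and 52 without WT sample 1). In every other comparison all alternatives gave 0 called members. The replicate block changed no other member call. *Cdkn1a* samples share only a number (correlations of deviations 0.21, 0.29 and -0.0093), and the block turned *Hdac4* to -0.069 and *Hdac5* to 0.073 there. Leaving a pair out of both FL HSC experiments at once could not be fitted, as no residual degree of freedom was left, so a pair of 1 experiment at a time was left out, chosen after seeing the data.

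Of 279 recomputed single values, 27 changed sign, all of uncalled probe sets. With only technical replicate 1, *Ep300*+/- FL HSCs gave 0.11 for *Mef2a* and -0.056 for *Mef2d*, and with only technical replicate 2, -0.14 for *Hdac4*, while the *Crebbp* minus *Ep300* difference of *Hdac7* was 0.032. Median centring gave -0.000583 for *Mef2d* in *Cdkn1a*-/- FL HSCs. Leaving out a sample or pair gave these ranges: in *Crebbp*+/- FL HSCs, -0.0795 to 0.49 for *Mef2a*, in *Ep300*+/- FL HSCs, -0.0815 to 0.0435 for *Mef2c*, and for the difference between these effects, -0.06 to 0.51 for *Mef2a* and -0.33 to 0.0675 for *Hdac7*. In *Cdkn1a*-/- FL HSCs they were -0.10 to 0.08 for *Mef2c*, -0.0898 to 0.10 for *Mef2d*, -0.07 to 0.18 for *Hdac4*, -0.19 to 0.15 for *Hdac5*, -0.68 to 0.0558 for *Hdac9* and -0.12 to 0.77 for the intronic *Mef2c* probe set. In *Crebbp*+/- MEFs they were -0.16 to 0.11 for *Mef2a* and -0.0903 to 0.0070 for *Mef2d*. The main *Hdac4*, *Hdac5* and *Hdac7* probe sets stayed lower in *Crebbp*+/- MEFs in every alternative that gave them a value. Levels near the minimum, few samples and separate normalization limit all of these values.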
